A study of Mus musculus with 6 samples.

Results

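Notch signaling genes were examined in lymphatic endothelial cells (LECs), which form the inner wall of lymphatic vessels, isolated from the mouse dura mater. The set held 10 of the 55401 genes in the deposited tables and was chosen by gene symbol: the receptors *Notch1*, *Notch2*, *Notch3* and *Notch4*, the ligands *Dll1*, *Dll4*, *Jag1* and *Jag2*, and the target genes *Hey1* and *Hes1*. WT C57BL/6J male mice, 4 wk old, were injected into the cisterna magna with an adeno-associated virus (AAV) of serotype 9. In the AAV-VEGF-C group the vector carried the lymphatic growth factor VEGF-C of the mouse. In the AAV-CTRL group it carried a soluble, Ig-fused piece of the VEGF-C receptor VEGFR-3 that lacks the VEGF-C-binding domains, so the control animals also received a virus and expressed a secreted protein. The labels do not give the promoter that drives either transgene or the interval before the cells were collected. Viable cells positive for CD31, Podoplanin and LYVE-1 and negative for CD45 were sorted, and each library was made from 10 to 12 pooled meninges. The experiment was done 3 times, with 1 library per group each time (AAV-CTRL 1 to 3 and AAV-VEGF-C 1 to 3).

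Notch receptors are transmembrane proteins that bind Delta-like (Dll) or Jagged (Jag) ligands on a neighboring cell. Binding exposes the receptor to cleavage by ADAM10 and then by gamma-secretase, and the freed intracellular domain enters the nucleus, where with RBPJ and Mastermind proteins it turns on *Hes* and *Hey* genes, which encode transcriptional repressors. In endothelium the pathway restrains sprouting downstream of VEGF receptors, sets arterial identity and takes part in lymphatic valve formation, and mural cells use *Notch3* as their typical receptor.

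The libraries held 6530269 to 12399498 counts in AAV-CTRL and 564475 to 3261935 counts in AAV-VEGF-C, so depth and treatment cannot be told apart. Gene families with no known use in endothelium (1653 genes, among them olfactory receptors) took 136 to 263 CPM (counts scaled to the same library total) in AAV-CTRL and 2752 to 6872 CPM in AAV-VEGF-C. This level is called background here. All 10 lymphatic marker genes, *Prox1* and *Flt4* among them, were detected in every library, with a summed abundance of 533 to 658 TPM in AAV-CTRL and 179 to 362 TPM in AAV-VEGF-C. TPM is an abundance that takes gene length and library total into account. Markers of other cells were present too. Fibroblast markers summed to 1795 to 4219 TPM in AAV-CTRL and 438 to 1366 TPM in AAV-VEGF-C, leukocyte markers to 80.9 to 2412 and 18.5 to 1229 TPM, blood endothelial markers to 89.0 to 642 and 42.6 to 91.5 TPM, mural cell markers to 89.9 to 277 and 14.7 to 85.5 TPM, and neural and glial markers to 12.2 to 32.0 and 9.39 to 25.8 TPM. No gene of these lists was at 0 in all libraries of a group, and in such bulk samples fewer cells of a type and less RNA per cell cannot be told apart.

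To ask whether VEGF-C changed Notch gene expression in dural LECs, the groups were compared with edgeR's quasi-likelihood test over all 17459 genes that passed its filter on low counts, which all 10 Notch genes did. At a Benjamini-Hochberg adjusted p under 0.05, 0 of the 10 passed as higher and 0 as lower after VEGF-C, where 10.5% of all tested genes passed as higher and 0.659% as lower. At an unadjusted p under 0.05, 0 were higher and 1, *Jag1*, was lower, against 19% and 9.11% of all tested genes. *Jag1* was the only one of the 10 called by DESeq2 (log2 fold change -1.25, adjusted p 0.0483) and by edgeR with no filter (-1.42, adjusted p 0.0124), where those tools called 1.72% and 2.64% of genes lower and 19.4% and 21.1% higher. With the replicate number as a block, which treats same-numbered libraries as pairs, 0 of the 10 were called, against 12.8% higher and 2.07% lower of all tested genes. Leaving out any 1 library also left 0 of the 10 called by edgeR, with 0 to 2 lower and 0 higher at an unadjusted p under 0.05. Few or no genes of any kind passed the adjusted threshold in some of these fits. The share was 0% in both directions when AAV-CTRL replicate 2 or 3 was dropped, so 0 of the 10 carries no information there. It was 0.0395% higher and 0% lower when AAV-VEGF-C replicate 2 was dropped. The other fits called 1.73% to 9.73% of all tested genes higher and 0.0431% to 0.264% lower. In the main edgeR fit the fold change was below 0 for 9 of the 10 genes, with *Jag2* as the exception. Its median over the 10 was -0.32 on the log2 scale. The median of all tested genes was -0.0037 and 50.2% lay below 0. Among the 7234 tested genes averaging at least 5 TPM the median was -0.41 and 76.0% lay below 0. In the same fit the 10 lymphatic markers had a median of 0.013, and 0 were called. The 9 fibroblast markers tested had a median of -1.16, with 9 below 0 and 2 called lower. Medians were -0.89 for blood endothelial, -0.69 for mural, -0.03 for leukocyte and 0.91 for neural and glial markers.

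**Figure D1:**
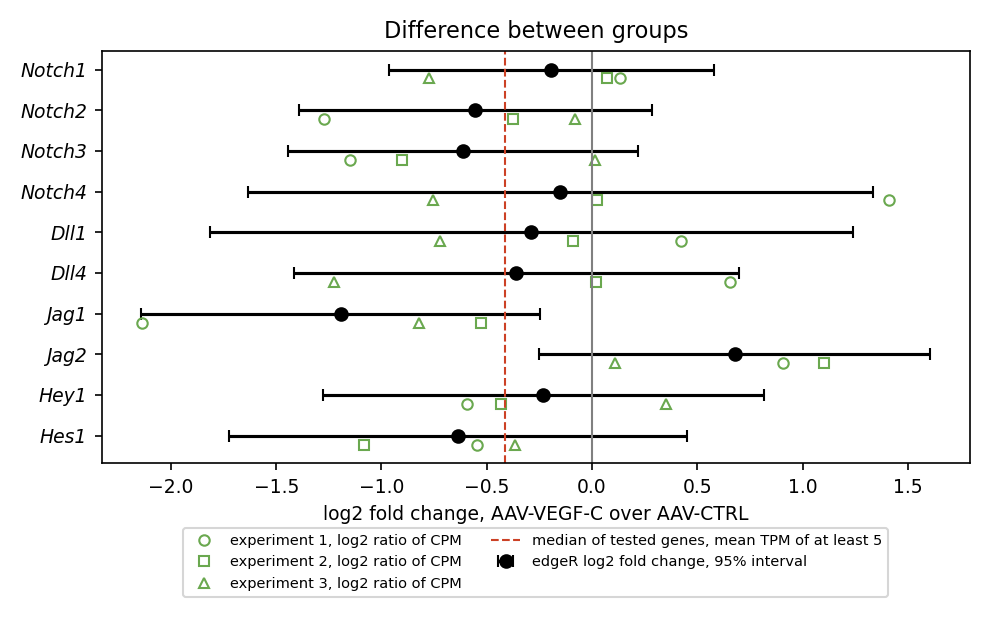
The log2 fold change of each Notch gene, AAV-VEGF-C over AAV-CTRL, with its 95% interval from edgeR (black), is plotted with the log2 ratio of scaled CPM in each of the 3 experiments (open green symbols), a line at 0 and a dashed line at the median of tested genes averaging at least 5 TPM. *Jag1* (-1.19) is the only gene whose interval lies wholly below 0, and *Jag2* (0.68) is the only gene with an estimate above 0.

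On the log2(TPM + 1) scale the median difference over all tested genes was -0.72, so TPM ran lower after VEGF-C for most genes. Every AAV-CTRL library lay above every AAV-VEGF-C library for 5 of the 10 genes, *Notch2*, *Notch3*, *Dll4*, *Jag1* and *Hes1*, and the reverse held for 0. Among all tested genes these shares were 36.4% and 12.8%, and among those averaging at least 5 TPM they were 61.4% and 3.46%. In CPM scaled by TMM factors, which adjust library totals for composition, the groups overlapped for all 10 genes, where 17.6% of tested genes had AAV-CTRL above and 22.3% had AAV-VEGF-C above (33.3% and 7.06% of those averaging at least 5 TPM).

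**Figure D2:**
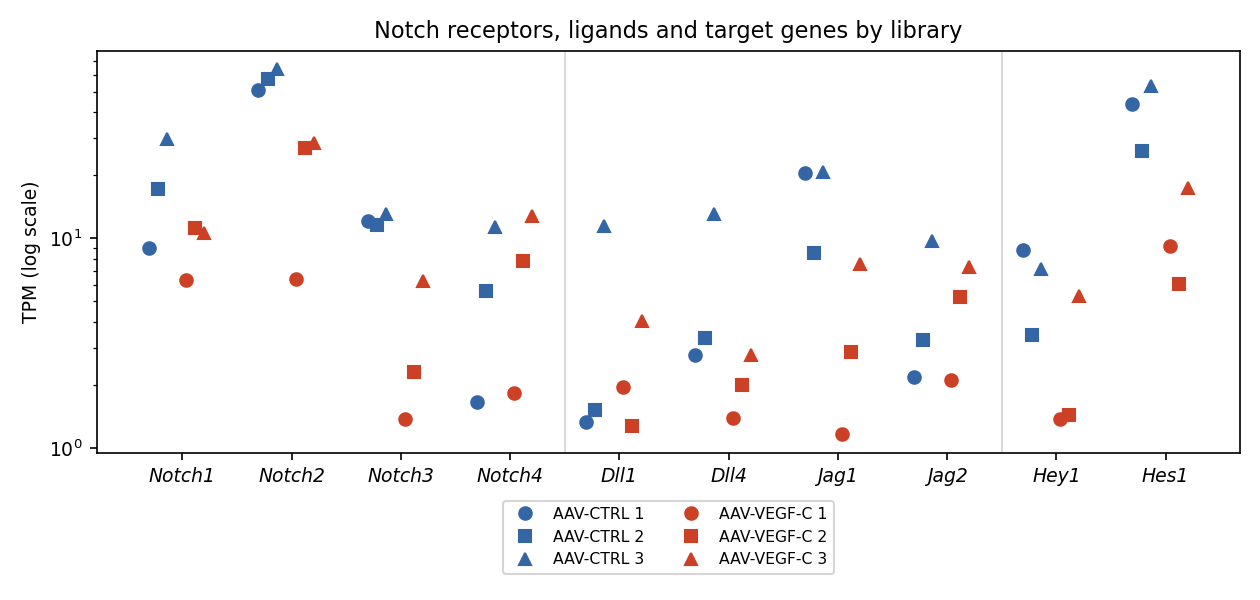
Abundance in TPM (log scale) of the 4 receptors, 4 ligands and 2 target genes is shown with 1 symbol per library, AAV-CTRL in blue and AAV-VEGF-C in red, and the symbol shape marks the experiment. *Notch2* is highest in AAV-CTRL at 51.3 to 64.3 TPM, and *Notch4* and *Jag2* have overlapping groups.

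*Notch2* was the most abundant of the 4 receptors in 6 of 6 libraries. The gene (ENSMUSG00000027878.11) lies on chromosome 3 at 98013527 to 98150361 of GRCm38. *Notch2* was at 51.3, 57.8 and 64.3 TPM in AAV-CTRL 1, 2 and 3 and at 6.39, 27.1 and 28.4 TPM in AAV-VEGF-C 1, 2 and 3. The groups did not overlap, and AAV-VEGF-C 1 was lowest. On 6151, 7577 and 9823 counts against 177, 1035 and 2187, the log2 fold change of *Notch2* was -0.55 (SE 0.36, edgeR adjusted p 0.358). It was below 0 in 3 of 3 experiments (-1.27, -0.38 and -0.08), a pattern seen in 27.9% of tested genes. That share was not worked out for genes averaging at least 5 TPM, of which 76.0% had a log2 fold change below 0. Exons of *Notch2* overlap those of *Gm42820* on the same strand, which leaves its counts uncertain to that extent. All 10 genes are protein coding, and exons of *Notch1*, *Notch3*, *Dll1* and *Dll4* overlap genes on the other strand, so their counts are uncertain too unless strand was used in counting.

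*Notch1* (ENSMUSG00000026923.15), the receptor with the widest known role in endothelium, lies on chromosome 2 at 26457903 to 26516663. *Notch1* was at 8.99, 17.2 and 29.7 TPM in AAV-CTRL and at 6.31, 11.2 and 10.7 TPM in AAV-VEGF-C, with overlapping groups. Its log2 fold change was -0.19 (SE 0.33, adjusted p 0.753), with a 95% interval from -0.97 to 0.58. The 3 experiments gave 0.13, 0.07 and -0.77, so only the third was lower.

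*Notch3* (ENSMUSG00000038146.8, chromosome 17, 32120820 to 32166852) varied little among controls. *Notch3* was at 12.1, 11.6 and 13.1 TPM in AAV-CTRL and at 1.37, 2.31 and 6.27 TPM in AAV-VEGF-C, a mean of 12.3 ± 0.765 (SD, n = 3) against 3.31 ± 2.60. The groups stood apart in TPM, with AAV-VEGF-C 3 closest to the controls. In counts the log2 fold change was -0.61 (SE 0.36, adjusted p 0.304), and experiment 3 gave 0.01 where experiments 1 and 2 gave -1.15 and -0.90. Of the 10 mural cell markers, 2 (*Pdgfrb* and *Kcnj8*) had all AAV-CTRL libraries above in TPM and 0 had the reverse. The shares of all tested genes were 36.4% and 12.8%, and of those averaging at least 5 TPM 61.4% and 3.46%. *Pdgfrb* was at 47.9, 27.6 and 67.5 TPM in AAV-CTRL and at 4.45, 9.88 and 21.9 TPM in AAV-VEGF-C. Other mural markers overlapped and varied widely among controls. *Rgs5* was at 0.51, 17.8 and 56.7 TPM against 1.17, 4.92 and 7.37, and *Myh11* at 0.27, 6.24 and 14.4 TPM against 1.34, 2.72 and 6.43. The part of mural cells in the *Notch3* values was not tested.

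*Notch4* (ENSMUSG00000015468.14), a receptor largely confined to endothelium, lies on chromosome 17 at 34564268 to 34588503. *Notch4* was at 1.65, 5.58 and 11.3 TPM in AAV-CTRL and at 1.84, 7.82 and 12.7 TPM in AAV-VEGF-C. Both groups covered about the same range, and within each experiment AAV-VEGF-C was higher in TPM. In counts, which were 65, 277 and 1156 against 12, 50 and 161, the log2 fold change was -0.15 (SE 0.64, adjusted p 0.915), with an interval from -1.63 to 1.33, and without AAV-CTRL replicate 3 it was 0.61. Counts and TPM are linked by the transcript length used for a library. *Notch4* has 12 annotated transcripts. The length implied by its count and TPM was 3523, 4066 and 6873 bases in AAV-CTRL and 2958, 1764 and 1758 bases in AAV-VEGF-C. For *Dll4* the implied length stayed between 4080 and 4587 bases in all 6 libraries, but other genes varied. *Dll1* had 2892, 2903 and 2300 bases in AAV-CTRL against 924, 1946 and 1932 in AAV-VEGF-C. *Jag2* had 3756, 4732 and 3662 against 2585, 3766 and 2578, and *Notch3* ran longer in AAV-VEGF-C.

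The balance among receptors was then expressed as the share of their summed TPM, which cancels the library total. *Notch2* made up 69.3%, 62.7% and 54.3% in the controls against 40.2%, 56.0% and 48.9% in AAV-VEGF-C. *Notch4* took 2.22%, 6.05% and 9.52% in the controls against 11.5%, 16.1% and 21.9% in AAV-VEGF-C. *Notch3* took 11.1% to 16.4% against 4.77% to 10.8%. These 3 shares did not overlap between groups except for *Notch2*, where AAV-VEGF-C 2 exceeded AAV-CTRL 3. The *Notch4* share carries the change in implied length just described. The *Notch3* share carries one too, from 7506, 5948 and 9291 bases in AAV-CTRL to 10578, 9556 and 9572 in AAV-VEGF-C. In counts the ratio of *Notch3* to *Notch4*, and that of every other pair of receptors, overlapped between groups. The shares were compared after the values were seen and were not tested.

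**Figure D3:**
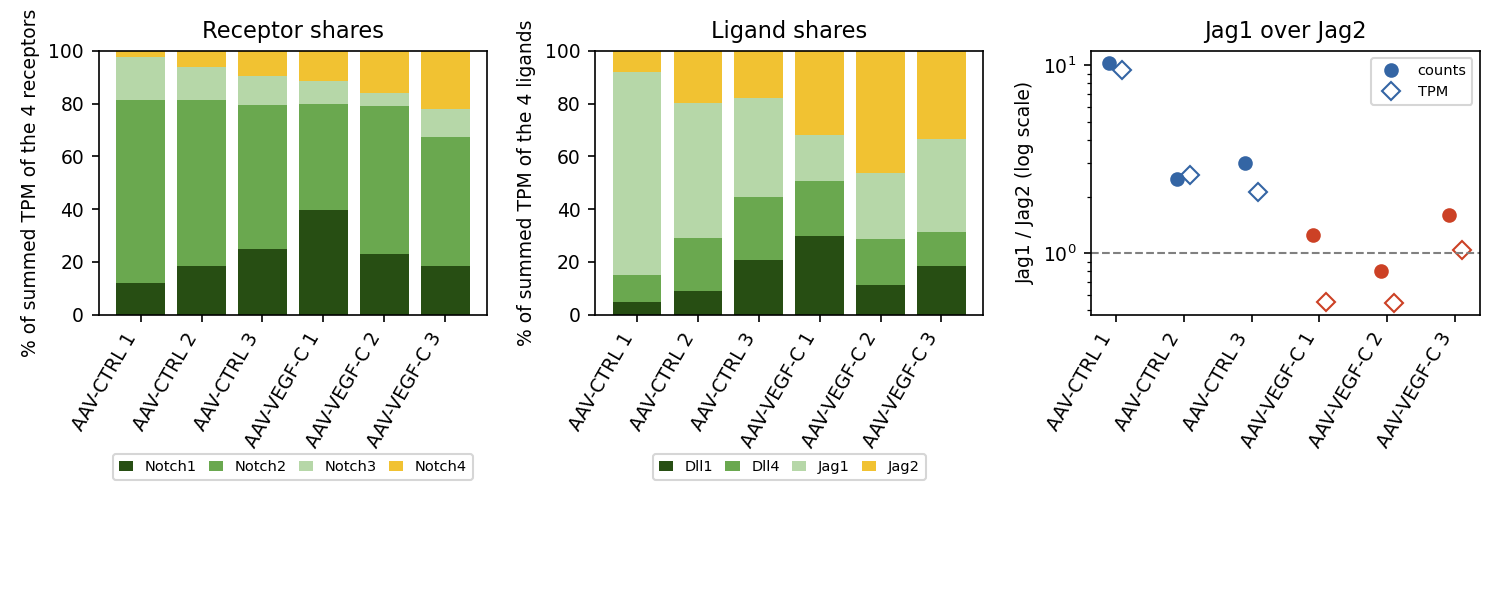
The left and middle panels stack each receptor's and each ligand's percent of the summed TPM of its 4-gene class for each library, and the right panel gives the *Jag1* to *Jag2* ratio (log scale) in counts (filled) and TPM (open), AAV-CTRL in blue and AAV-VEGF-C in red, with a dashed line at 1. *Jag2* takes 31.8% to 46.2% of ligand TPM in AAV-VEGF-C against 8.13% to 19.7% in AAV-CTRL, and the ratio is lower in every AAV-VEGF-C library on both scales. The TPM shares carry the changes in implied length given in the text.

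Among the ligands, the Jagged pair had estimates of opposite sign. *Jag1* (ENSMUSG00000027276.7, chromosome 2, 137081456 to 137116644) encodes a ligand of endothelial, mural and stromal cells and was the most abundant ligand of every AAV-CTRL library. *Jag1* was at 20.6, 8.53 and 20.7 TPM in AAV-CTRL and at 1.16, 2.87 and 7.58 TPM in AAV-VEGF-C, with the highest AAV-VEGF-C library just under the lowest control. On 949, 471 and 1615 counts against 15, 58 and 215, its log2 fold change was -1.19 (SE 0.41, 95% interval -2.14 to -0.25, edgeR p 0.0198, adjusted p 0.105), a ratio of 0.437. *Jag1* was lower in 3 of 3 experiments (-2.14, -0.53 and -0.82), as were 27.9% of tested genes. With the replicate number as a block its adjusted p was 0.0681, and over all alternatives it ran from 0.0124 to 0.414. Fibroblast markers had a median log2 fold change of -1.16 and lymphatic markers one of 0.013. The part of stromal and mural cells in the *Jag1* values was not tested.

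*Jag2* (ENSMUSG00000002799.6, chromosome 12, 112907819 to 112929776), which encodes the second Jagged ligand, was at 2.19, 3.27 and 9.74 TPM in AAV-CTRL and at 2.10, 5.27 and 7.27 TPM in AAV-VEGF-C. The groups overlapped in TPM. On 92, 189 and 532 counts against 12, 72 and 135, its log2 fold change was 0.68 (SE 0.40, 95% interval -0.25 to 1.61, adjusted p 0.309), a ratio of 1.60. *Jag2* was higher in 3 of 3 experiments (0.91, 1.10 and 0.11), as were 28.9% of tested genes. Neither Jagged gene passed the adjusted threshold.

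The ratio of *Jag1* to *Jag2* within a library does not depend on its total. In counts the ratio was 10.3, 2.49 and 3.04 in the controls against 1.25, 0.806 and 1.60 in AAV-VEGF-C. In TPM it was 9.43, 2.61 and 2.12 against 0.552, 0.544 and 1.04. The AAV-CTRL values lay above the AAV-VEGF-C values on both scales. The pair was picked after the values were seen and is given without a test. Of the 45 pairs among the 10 genes, 6 had groups that did not overlap in counts, 11 in TPM, and 6 in both with the same direction, and each of those 6 included *Jag1* or *Jag2*. They were the ratios of *Jag1*, *Notch1*, *Notch2* and *Notch3* to *Jag2* and of *Jag1* to *Hey1*, which were lower in AAV-VEGF-C, and that of *Notch4* to *Jag1*, which was higher there. Pairs of other genes were not counted in this way, so no share over all genes can be set beside these numbers. Pairs that share a gene are not independent, and whether 6 of 45 is more than usual was not tested.

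The RefSeq sequence upstream of both Jagged start sites (250 bases, GRCm38.p6, minus strand of each chromosome) is shown because these genes carry that contrast. The *Jag1* stretch is chr2:137116521-137116770 and the *Jag2* stretch is chr12:112929496-112929745. By the gene positions given above, the *Jag2* stretch lies wholly inside the annotated gene and the *Jag1* stretch lies partly inside it. Neither stretch is thus upstream of the annotated gene over its whole length. Capitals would mark GTGGGAA, a preferred site of RBPJ, or its reverse complement TTCCCAC, and neither stretch holds one.
Jag1: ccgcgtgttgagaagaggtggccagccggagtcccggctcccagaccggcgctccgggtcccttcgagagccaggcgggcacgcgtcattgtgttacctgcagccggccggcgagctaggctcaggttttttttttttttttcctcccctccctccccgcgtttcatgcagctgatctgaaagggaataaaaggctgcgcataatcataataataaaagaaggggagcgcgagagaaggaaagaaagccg
Jag2: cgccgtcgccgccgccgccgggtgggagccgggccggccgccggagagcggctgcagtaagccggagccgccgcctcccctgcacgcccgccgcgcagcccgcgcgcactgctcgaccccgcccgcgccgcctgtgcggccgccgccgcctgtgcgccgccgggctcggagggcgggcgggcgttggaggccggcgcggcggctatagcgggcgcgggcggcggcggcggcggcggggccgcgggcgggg
Of the 10 genes, 8 were in the RefSeq promoter table, with 9 windows of 300 bases (250 before to 50 after a start). GTGGGAA, searched on both strands, was in 0 of the 9 windows, against 6.38% of all 32851 windows. *Hes1* and *Hey1* were not among the 8.

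*Dll4* (ENSMUSG00000027314.6, chromosome 2, 119325784 to 119335962) encodes the ligand of endothelial tip cells and arteries. *Dll4* was at 2.77, 3.33 and 13.1 TPM in AAV-CTRL and at 1.38, 2.0 and 2.76 TPM in AAV-VEGF-C. The groups were adjacent, with AAV-VEGF-C 3 just below AAV-CTRL 1, and AAV-CTRL 3 stood far above the rest. Its log2 fold change was -0.36 (SE 0.46, adjusted p 0.653), with 0.65, 0.02 and -1.23 in the 3 experiments. *Dll1* (ENSMUSG00000014773.13, chromosome 17, 15367354 to 15376872), another Delta-like ligand, was at 1.33, 1.52 and 11.4 TPM in AAV-CTRL and at 1.96, 1.28 and 4.03 TPM in AAV-VEGF-C. *Dll1* rested on 4, 9 and 56 counts in AAV-VEGF-C. Its fold change on the log2 scale was -0.29 (SE 0.66, adjusted p 0.823).

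The high *Dll4*, *Dll1* and *Notch4* values of AAV-CTRL 3 came with high blood endothelial genes in that library. *Vwf* was at 1.35, 73.2 and 208 TPM in AAV-CTRL and at 3.39, 24.7 and 23.4 TPM in AAV-VEGF-C. The arterial connexin gene *Gja5* was at 0.06, 0.29 and 6.22 TPM in AAV-CTRL and at 0.13, 0.71 and 1.48 TPM in AAV-VEGF-C. Without AAV-CTRL replicate 3 the log2 fold change was 0.15 for *Dll4* and 0.58 for *Dll1*, a turn in sign for both. The part of blood endothelial cells in these values was not tested.

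Both target genes were detected in all 6 libraries. *Hes1* (ENSMUSG00000022528.8, chromosome 16, 30064384 to 30067796) was at 43.7, 26.0 and 53.3 TPM in AAV-CTRL and at 9.20, 6.07 and 17.3 TPM in AAV-VEGF-C. The groups did not overlap in TPM, and AAV-VEGF-C 2 was lowest. On 546, 322 and 751 counts against 26, 27 and 137, the log2 fold change of *Hes1* was -0.64 (SE 0.47, 95% interval -1.73 to 0.45, edgeR adjusted p 0.417). It was below 0 in 3 of 3 experiments (-0.55, -1.08 and -0.37), as for 27.9% of tested genes. *Hey1* (ENSMUSG00000040289.8, chromosome 3, 8663359 to 8667256) was at 8.80, 3.44 and 7.15 TPM in AAV-CTRL and at 1.38, 1.44 and 5.28 TPM in AAV-VEGF-C, with overlap between groups. Its counts were 174, 99 and 236 against 8, 13 and 71, and its log2 fold change was -0.23 (SE 0.45, adjusted p 0.788), with experiment 3 above 0. *Hes1* made up 83.3% to 88.3% of the summed TPM of both genes in AAV-CTRL and 76.6% to 87.0% in AAV-VEGF-C, so the proportion overlapped.

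The order of mean TPM in AAV-CTRL was *Notch2* (57.8 ± 6.53), *Hes1* (41.0 ± 13.8), *Notch1* (18.6 ± 10.4), *Jag1* (16.6 ± 7.0), *Notch3* (12.3 ± 0.765), *Hey1* (6.46 ± 2.74), *Dll4* (6.40 ± 5.81), *Notch4* (6.17 ± 4.84), *Jag2* (5.07 ± 4.09) and *Dll1* (4.76 ± 5.78), each as mean and SD with n = 3. Only *Notch3* and *Hey1* were neighbors whose ranges did not overlap. In AAV-VEGF-C *Notch2* (20.6 ± 12.3), *Hes1* (10.9 ± 5.80) and *Notch1* (9.38 ± 2.68) again led, followed by *Notch4* (7.46 ± 5.46) and *Jag2* (4.88 ± 2.60), and all neighbors overlapped. *Jag1* went from the fourth place to the sixth.

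Because background was higher in AAV-VEGF-C, each count was set against the background count expected for a gene of that length. In AAV-CTRL every gene was at least 26.4-fold above it. In AAV-VEGF-C *Notch2* was 23.8, 105 and 127-fold above background and *Hes1* was 18.5, 14.5 and 42.1-fold above it. *Jag1* was 3.73, 10.9 and 23.1-fold above and *Jag2* was 2.50, 11.3 and 12.1-fold above. *Dll1* was nearest to background in each AAV-VEGF-C library, at 1.37, 2.33 and 8.31-fold. *Notch4* was at 2.16, 6.77 and 12.5-fold and *Hey1* at 3.55, 4.34 and 13.6-fold. AAV-VEGF-C 1 thus holds little signal above background for *Dll1*, *Notch4* and *Jag2*, and not much more for *Hey1* (3.55-fold) and *Jag1* (3.73-fold). After subtraction of the expected background the log2 fold change was -0.98 for *Jag1* (adjusted p 0.366) and 0.81 for *Jag2* (adjusted p 0.515), and 0 of the 10 genes were called, where 0.0721% of all tested genes passed as higher and 0% as lower, or 3.68% and 0.0655% with the replicate block. Among genes averaging at least 5 TPM 0 of the 6 tested Notch genes were called (0.119% of all higher, 0% lower), and after all libraries were drawn down to the smallest total 0 of the 8 tested were called (0.17% higher, 0% lower).

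**Figure D4:**
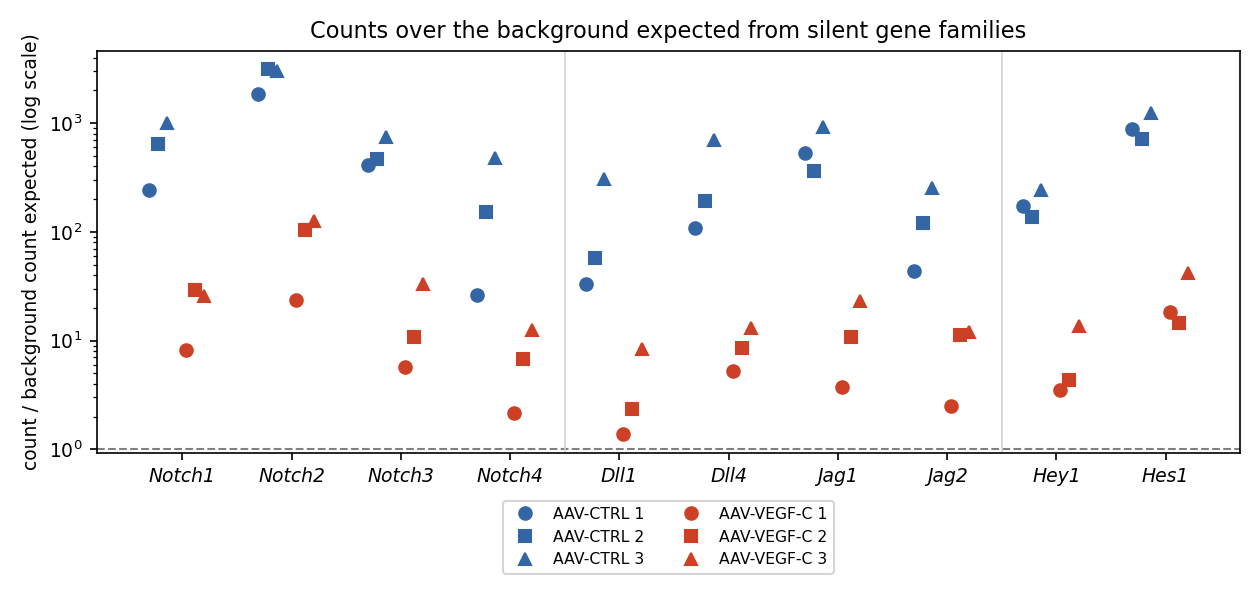
The count of each Notch gene divided by the count expected from background (log scale) is shown per library, AAV-CTRL in blue and AAV-VEGF-C in red, with a dashed line where both are equal. Every AAV-CTRL value is at 26.4 or more, and *Dll1* in AAV-VEGF-C 1 is lowest at 1.37.

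Other genes of the pathway were read from a list of 69, of which 66 were tested. In AAV-VEGF-C 2 were higher (*Hes7* and *Dlk2*) and 0 were lower by edgeR, where 10.5% and 0.659% of all tested genes were called. At an unadjusted p under 0.05, 3 were higher and 7 lower, against 19% and 9.11% of all genes. DESeq2, which tested all 69, called 4 higher (*Hes7*, *Dlk2*, *Hes2* and *Hes3*) and 2 lower (*Adam10* and *Hdac1*), against 19.4% and 1.72% of all genes. Their median log2 fold change was -0.31, and 43 of the 66 lay below 0. Of the 36 averaging at least 5 TPM, 27 lay below 0 with a median of -0.44, against -0.41 for all tested genes of that level.

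*Hes7* encodes a repressor of the HES family known from the segmentation clock of the embryo. *Hes7* had 41, 26 and 8 counts in the controls and 91, 101 and 75 after VEGF-C, or 1.85, 1.08 and 0.27 TPM against 18.1, 13.4 and 5.12 TPM. The AAV-VEGF-C libraries were all higher, in spite of their lower totals, and the expected background was 1.25, 1.66 and 2.88 counts there. Its log2 fold change was 4.86 (SE 1.10, edgeR adjusted p 0.0309). It was 3.75 without AAV-VEGF-C replicate 1, and the adjusted p was between 0.0541 and 0.0953 without that library, without AAV-CTRL replicate 2 or 3, or without AAV-VEGF-C replicate 2 or 3. Its exons (chromosome 11, 69120404 to 69124055) overlap *9130213A22Rik* on the other strand, and the use of strand in counting is not given in the sources used here, so the *Hes7* reads cannot be assigned with certainty. *Dlk2*, which encodes a Delta-like protein that lacks the receptor-binding domain of the canonical ligands, had 0, 1 and 0 counts in the controls and 3, 4 and 11 after VEGF-C. Its log2 fold change was 6.04 (SE 1.05, adjusted p 0.0195), and the ratio of pooled rates was 91.6 with an exact 95% counting interval from 14.5 to 3819. That interval pools 1 count against 18 over unscaled library totals and covers counting noise only. It leaves out the spread between libraries, which was larger than counting noise within both groups, so it is too narrow. The expected background of *Dlk2* was 1.46, 1.93 and 3.37 counts in AAV-VEGF-C, near its counts, and its exons overlap *Abcc10* on the other strand. By edgeR it was above the threshold without AAV-CTRL replicate 2 (adjusted p 0.0772), AAV-CTRL replicate 3 (0.0549) or AAV-VEGF-C replicate 2 (0.0543). *Dlk2* was not tested without AAV-VEGF-C replicate 3, at a mean of at least 5 TPM, after drawing down or after background subtraction. Of all tested genes 0% passed in either direction without AAV-CTRL replicate 2 or 3. The higher and lower shares were 6.13% and 0.214% without AAV-VEGF-C replicate 1, 9.73% and 0.264% when AAV-CTRL replicate 1 was dropped, 0.0395% and 0% without AAV-VEGF-C replicate 2, and 1.73% and 0.0431% without AAV-VEGF-C replicate 3.

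The 250 bases before the RefSeq start of *Hes7* (GRCm38.p6, plus strand, chr11:69120203-69120452) are given because *Hes7* was called and holds an RBPJ-type motif. Capitals mark TTCCCAC, the reverse complement of GTGGGAA, 180 bases before the start. By the position given above, the end of this stretch lies inside the annotated gene.
Hes7: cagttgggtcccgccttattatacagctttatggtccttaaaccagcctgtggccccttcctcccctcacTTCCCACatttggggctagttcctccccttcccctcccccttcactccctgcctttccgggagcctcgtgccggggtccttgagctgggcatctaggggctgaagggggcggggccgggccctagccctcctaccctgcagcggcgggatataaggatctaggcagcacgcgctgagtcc
Of the 8 other target genes listed, 5 were in the promoter table and 3 of them had a match in their window (*Hes7*, *Hey2* and *Hes5*). A match is a run of letters and no evidence of binding. Besides *Hes7*, 0 of the other 4 target genes tested were called by edgeR. *Heyl*, the mural cell member of the HEY group, stood at -0.65 on the log2 scale (SE 0.43, adjusted p 0.364) and *Hes6* at 0.46 (SE 0.41, adjusted p 0.498).

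Among the 10 genes of receptor processing 0 were called by edgeR, with a median of -0.45. *Adam10*, which encodes the protease of the first ligand-induced cleavage, was closest to the threshold and is named outside the rule, after its values were seen. *Adam10* was at 15.2, 17.9 and 32.0 TPM in AAV-CTRL and at 3.82, 6.76 and 6.69 TPM in AAV-VEGF-C, without overlap. Its log2 fold change was -1.0 (SE 0.27, edgeR adjusted p 0.0540), and with the replicate block the adjusted p was 0.0492 and the gene was called lower. DESeq2 (0.0231), no filter (0.0268) and voom with sample weights (0.0275, with 13.6% of all genes higher and 1.53% lower) called it as well. It was not called under scaling by the 2000 most abundant genes (-0.54, adjusted p 0.257), among genes averaging at least 5 TPM (-0.64, 0.365), after background subtraction without the block (-0.74, 0.354) or with it (-0.74, 0.326), or after drawing down (-0.41, 0.637). The gamma-secretase gene *Ncstn* (-1.05, adjusted p 0.226) and the convertase gene *Furin* (-0.46, adjusted p 0.362) were not called by edgeR, although *Ncstn* was called lower with no filter (-1.26, adjusted p 0.0259).

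The glycosyltransferases that tune ligand choice gave a median of -0.76 over 5 genes and 0 edgeR calls. *Lfng*, a Fringe gene, stood at 0.28 on the log2 scale (adjusted p 0.754), while *Rfng* had -0.76 (adjusted p 0.294) and *Pofut1*, which adds O-fucose to the receptor, had -0.82 (adjusted p 0.136). Ligand endocytosis genes, which pull on the bound receptor, had a median of -0.01 over 5 genes and 0 edgeR calls. *Mib1* had -0.70 (adjusted p 0.119), *Mib2* -0.04 (adjusted p 0.961) and *Neurl1a* 0.74 (adjusted p 0.171). Scaled on the 2000 most abundant genes, *Neurl1a* was called higher (1.2, adjusted p 0.0397), where 14.8% of all tested genes passed as higher and 0.0458% as lower.

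Nuclear cofactors gave 0 edgeR calls among 17 genes with a median of -0.38. *Hdac1*, which encodes a histone deacetylase, was called lower by DESeq2 (adjusted p 0.0488), by voom with sample weights (0.0494) and by edgeR with no filter (0.0227), and the acetyltransferase gene *Kat2b* with no filter only (0.0467), both named after their values were seen. The corepressor gene *Ncor1* stood at -0.54 on the log2 scale (adjusted p 0.250), and the acetyltransferase gene *Crebbp* at -0.38 (adjusted p 0.414). *Rbpj*, which encodes the DNA-binding partner of all 4 receptors, was at -0.04 (SE 0.56, adjusted p 0.977) and is named outside the rule. The 11 genes of receptor turnover gave 0 edgeR calls and a median of -0.44, with *Numb* at -0.53 (adjusted p 0.296), *Dtx3* at -0.44 (adjusted p 0.366) and the ubiquitin ligase gene *Itch* at -0.97 (adjusted p 0.132). *Itch* was called lower by edgeR with no filter (-1.19, adjusted p 0.0342).

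Among ligand genes outside the 10, *Dlk2* was the one called by edgeR. *Dll3*, which encodes a Delta-like protein, was not called by the main edgeR fit (log2 fold change 2.74, adjusted p 0.217). Voom with sample weights called it higher (4.52, adjusted p 0.0270), as did edgeR without AAV-CTRL replicate 1 (5.82, adjusted p 0.0395). That omitted library held most of the few *Dll3* counts of the controls, which were 11, 0 and 1, against 2, 4 and 14 after VEGF-C. *Dll3* is named after its values were seen. *Egfl7*, a secreted endothelial protein that binds Notch, was at 31.0, 44.0 and 187 TPM in AAV-CTRL and at 17.5, 22.4 and 28.7 TPM in AAV-VEGF-C, with the top value again in AAV-CTRL 3. Its log2 fold change was -0.55 (SE 0.42, adjusted p 0.428), beside 0.48 for *Dner* (adjusted p 0.503) and -0.13 for *Dlk1* (adjusted p 0.943). Endothelial genes linked to Notch gave 0 edgeR calls among 8, with a median of -0.17. The lymphatic valve genes *Foxc1* and *Foxc2* had log2 fold changes of -0.74 (adjusted p 0.305) and -0.60 (adjusted p 0.398), and the guidance receptor gene *Unc5b* had 0.32 (adjusted p 0.791).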

How the data were processed

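Total RNA of pooled, sorted cells was made into stranded low-input libraries, and groups came from the labels. Values deposited by the authors are estimated counts, unscaled, and TPM. The submitters' processing notes name mm10, FastQC, Trimmomatic, DRAGEN and Picard, without versions. The use of strand in counting is not given in the sources used here. Of the gene identifiers, 98.1% matched GENCODE M21 (GRCm38) with their version, which gave positions, while promoters came from RefSeq (GRCm38.p6).

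Estimated counts were rounded, kept by filterByExpr, scaled by TMM and tested with edgeR 4.0.16 (R 4.3.3), quasi-likelihood, Benjamini-Hochberg at 0.05. DESeq2 1.42.0 (the study's tool) and limma 3.58.1 on log2(TPM + 1) and log2(TPM + 0.1) were alternatives. The smallest p that an exact permutation of 3 libraries against 3 allows is 0.1, so none is given for single values. Implied length is the count over the TPM, set to scale on single-transcript genes.

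Named genes are the 10 members, other pathway genes with an adjusted p under 0.05 and the 3 with the highest mean TPM in each role group, of which some are not reported here. Members and lists were chosen with earlier results of these data known. Replicate numbers mark repeat experiments. Deviations from the group mean of same-numbered libraries had correlations across genes of 0.37, 0.28 and 0.15. The third lay below the 0.22 of the unmatched AAV-CTRL 3 and AAV-VEGF-C 2, so the pairing is not clear in the values for all 3. The main edgeR fit used the group only, without pairs. Same-numbered libraries were taken as pairs in the replicate block and in the ratios per experiment. Within groups no libraries were alike within sampling noise.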

Additional observations from a re-analysis of the deposited data

How the results depend on the processing

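The log2 fold changes of *Jag1*, *Notch2*, *Notch3* and *Hes1* stayed below 0 and that of *Jag2* stayed above 0 in every alternative run that tested them, from -2.34 to -0.73 for *Jag1* and from 0.045 to 1.12 for *Jag2*. *Dll1*, *Dll4*, *Jag2* and *Hey1* were not tested at a mean of at least 5 TPM, nor *Dll1* and *Hey1* after counts were drawn down to the smallest library. The other genes reversed in places. Scaling on the 2000 most abundant genes, which moved the median of all genes to 0.45, gave 0.26 for *Notch1*, 0.30 for *Notch4*, 0.17 for *Dll1*, 0.10 for *Dll4* and 0.25 for *Hey1*. A mean of at least 5 TPM gave 0.15 for *Notch1* and 0.19 for *Notch4*. With limma, *Notch4* was at 0.23 on log2(TPM + 1) and at 0.27 on log2(TPM + 0.1), where the median of all genes moved to -0.72 and -1.04. Voom with sample weights gave 0.34 for *Notch4*, 0.17 for *Dll1* and 0.023 for *Hey1*. Drawn-down counts gave 0.23 for *Notch1* and 0.38 for *Dll4*, and background subtraction gave 0.11 for *Notch1*. Leaving out one replicate gave 0.11 for *Hey1* (without AAV-CTRL replicate 1) and 0.61, 0.58 and 0.15 for *Notch4*, *Dll1* and *Dll4* (without AAV-CTRL replicate 3). Over all fits that left out one replicate, *Notch4* ran from -0.65 to 0.61, *Dll1* from -0.96 to 0.58, *Dll4* from -0.65 to 0.15 and *Hey1* from -0.62 to 0.11. For all of these turns in sign the cause was not tested.

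Of the 10 genes, 1 was lower (*Jag1*) with no filter and 1 under DESeq2. Of the other pathway genes, 4 were higher with no filter and 4 under DESeq2, and 5 and 2 were lower, while 2 were lower under voom. The higher genes became 0 at a mean of at least 5 TPM, 0 after drawing down and 0 after background subtraction (2, 4 and 1 at an unadjusted p under 0.05 by edgeR), where fewer genes were tested. There *Hes7* was at 5.31, 6.05 and 5.39, and *Dlk2* was not among the genes tested. The number of higher genes ran from 0 to 3 when one replicate was left out. It was 0 without AAV-CTRL replicate 2 or 3 (2 and 3 at an unadjusted p under 0.05 by edgeR). It was also 0 without AAV-VEGF-C replicate 2 or 3 (3 and 1). It was 1 without AAV-VEGF-C replicate 1 and 3 without AAV-CTRL replicate 1. With the replicate block 0 of the 10 genes were called, *Notch4* was at 0.069 and 1 other pathway gene (*Adam10*) was lower. The block after background subtraction, added after the data were seen, left 1 other pathway gene higher (*Hes7*), with *Notch1* at 0.11 and *Notch4* at 0.051. *Dlk2* was not tested in that fit. The block changed no other call.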

Other observations

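3 target genes had too few counts for the edgeR filter. *Hes2* had 0, 0 and 1 counts in the controls against 1, 2 and 13 in AAV-VEGF-C. It was called higher by DESeq2 (adjusted p 0.00754) and by edgeR with no filter (0.00705). *Hes3* had 1, 0 and 0 counts against 4, 1 and 8, and was called higher by DESeq2 (adjusted p 0.00354) and by edgeR with no filter (0.00787). Those settings called 19.4% and 21.1% of all genes higher. The counts of *Hes2* and *Hes3* were few, and the background count expected for them was not worked out. *Hes5* had 2, 2 and 27 counts against 0, 2 and 17.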
